A study of Mus musculus with 6 samples.

Results

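The mouse mitochondrial chromosome carries 37 annotated genes, and all of them were rows of the deposited table of 57180 genes. They were taken as every gene on chromosome M of the GENCODE M21 annotation (build mm10) and divided by their annotated RNA class into 13 protein-coding, 2 rRNA and 22 tRNA genes. RNA sequencing had been done on adipose tissue macrophages, sorted as F4/80+ CD11b+ cells from the white adipose tissue of wild-type (WT) mice. All mice were on a high-fat diet (HFD), and the comparison was between 3 libraries from HFD alone and 3 from HFD with magnesium isoglycyrrhizinate (MGIG), a magnesium salt of an isomer of the liquorice compound glycyrrhizic acid. The labels give no strain, sex, age, dose or duration, and no batch. They leave unsaid whether the libraries are from different animals, and the spread between libraries that the p-values measure may be technical. Macrophage markers were present in every library, with a summed level of 14516 to 16576 CPM (counts per 1e+06 counts of the library) in HFD against 6303 to 16042 in HFD+MGIG, the lowest in HFD+MGIG 2.

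Mitochondrial DNA is transcribed from both strands as long precursors, which are cut at the tRNAs that lie between most of the other genes. This releases the mRNAs of 13 subunits of the respiratory chain and ATP synthase, both ribosomal RNAs of the mitochondrial ribosome, and the tRNAs that read its code. Most of the mRNAs carry poly(A) tails added after cutting. The other subunits of the same complexes are encoded in the nucleus. In macrophages the respiratory chain supplies ATP and takes part in switching between inflammatory and resting metabolism.

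Some facts of the libraries bear on every value below. Total counts were 14437766 to 16740519 in HFD against 2214660 to 4904513 in HFD+MGIG, so a count of 0 allowed up to 0.179 to 0.208 CPM in HFD and up to 0.612 to 1.35 CPM in HFD+MGIG (3 counts, counting error only). Gene families that macrophages should not express, such as olfactory receptors and keratin-associated proteins, took 0.0627% to 0.282% of the counts in HFD against 2.96% to 6.47% in HFD+MGIG. The 90th percentile of counts per kb over those families, times the length of a gene, is called its background bound here. Over all 23053 genes tested with the standard scaling, 43.0% were called higher and 17.8% lower in HFD+MGIG, and the median log2 fold change was 0.38. Endothelial markers were lower in HFD+MGIG for 7 of 7 genes, with a summed 1711 to 2035 CPM in HFD against 311 to 635 CPM in HFD+MGIG. Fibroblast markers (2147 to 3267 against 1179 to 1705 CPM, 4 of 6 called lower), white adipocyte markers (609 to 1339 against 262 to 400 CPM, 4 of 5) and epidermal markers (51.0 to 290 against 2.45 to 12.05 CPM, 4 of 4) were also lower without overlap in their sums. Brown adipocyte markers, of a cell rich in mitochondria, summed to 3.88 to 8.85 CPM in HFD against 21.9 to 55.2 CPM in HFD+MGIG. Of these markers, 2 of 5 were called higher, beside 43.0% of all genes. Their sum was highest in HFD+MGIG 2, the library with the largest share of counts on silent families. The part of depth, of counts on silent families and of other cell types in the results below was not tested.

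The sequences of 7 mitochondrial mRNA genes are shared with a block of unprocessed pseudogenes on nuclear chromosome 1 (mm10 chr1:24611535-24616197, minus strand), and for 6 of the 7, all but mt-Nd4, counts were listed under the nuclear copy in some or all libraries. The 7 copies matched their mitochondrial gene at 99% identity or more over at least 90% of the copy, in an alignment of the GENCODE transcripts. Gm28661 matched mt-Co2 over 681 bases, Gm10925 matched mt-Atp6 over 678, Gm28437 matched mt-Co3 over 783, Gm10222 matched mt-Nd4l over 294 and Gm28439 matched mt-Nd4 over 876, all without a mismatch. Gm29216 differed from mt-Co1 by 1 base in 483, and Gm28438 from mt-Nd3 by 1 base in 345. The sequences of these pairs are shown because they set what a read can tell apart: the first 60 bases of mt-Co3 and of its copy are the same, and for the other 2 pairs the capital marks the only base that differs in the aligned stretch, in a window that starts at position 1063 of mt-Co1 and at position 1 of mt-Nd3.
mt-Co3 first 60 bases: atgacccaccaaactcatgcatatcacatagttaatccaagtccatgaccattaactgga
Gm28437 first 60 bases: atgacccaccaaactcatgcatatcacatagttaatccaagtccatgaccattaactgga
mt-Co1: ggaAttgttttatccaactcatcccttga
Gm29216: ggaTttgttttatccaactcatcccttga
mt-Nd3: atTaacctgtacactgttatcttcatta
Gm28438: atCaacctgtacactgttatcttcatta
The substitutions are A1066T for mt-Co1 against Gm29216 and T3C for mt-Nd3 against Gm28438, with the mitochondrial base first and positions counted from 1 at the 5′ end of the mitochondrial transcript.

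The division of counts within a pair was uneven between genes and between libraries. mt-Co3, a core subunit of cytochrome c oxidase (chrM:8607-9390, plus strand), had 12197, 3581 and 8379 deposited counts in HFD 1, 2 and 3, with 0.38, 458 and 1090 in the HFD+MGIG libraries. Its copy Gm28437 had 97010, 77662 and 74107 counts in HFD against 15504, 6723 and 14014 in HFD+MGIG. The copy therefore held 88.8% to 95.6% of the pair in HFD against 92.8% or more in HFD+MGIG, and mt-Co3 itself was nearly empty in HFD+MGIG 1.

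The other pairs were split in other ways. For mt-Nd4l, a small subunit of complex I, every count sat under Gm10222 in 5 libraries and 88.4% did in HFD 3. For mt-Nd3, another small subunit of complex I, the copy held 56.9%, 71.3% and 70.8% in HFD against 42.5%, 89.8% and 51.2% in HFD+MGIG. Gm29216, the copy of the 3′ part of mt-Co1, held 15.7% to 19.2% in HFD against 16.4% to 21.1% in HFD+MGIG. Gm10925 held 4.04% and 13.1% of the mt-Atp6 pair in HFD+MGIG 1 and 2 and at most 0.0219% in the other 4 libraries. Gm28661 held 30.8% of the mt-Co2 pair in HFD+MGIG 3 and at most 0.187% elsewhere, and Gm28439, the copy within mt-Nd4, was listed at 0 in all 6.

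Fractional values of a pair added up to whole counts, within 0.01. This held in 6 of 6 libraries for mt-Co3, mt-Nd3 and mt-Atp6 with their copies (mt-Atp6 itself was whole in 2), and for mt-Co1 and mt-Co2 once the more diverged copies Gm13340 and Gm13341 on chromosome 2 were included. mt-Nd4 was whole by itself in all 6 libraries and mt-Nd4l in 5. The near-identical copies together took 21.95% to 24.0% of the counts on mitochondrial mRNA genes and copies in HFD against 25.5% to 29.3% in HFD+MGIG. The 8 more diverged copies, with 90% or more identity over at least 300 bases, summed to 0.841 to 2.95 CPM in HFD against 8.41 to 12.7 CPM in HFD+MGIG. Values are therefore given below as deposited and, where it matters, with the near-identical copies added to their mitochondrial gene.

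**Figure D1:**
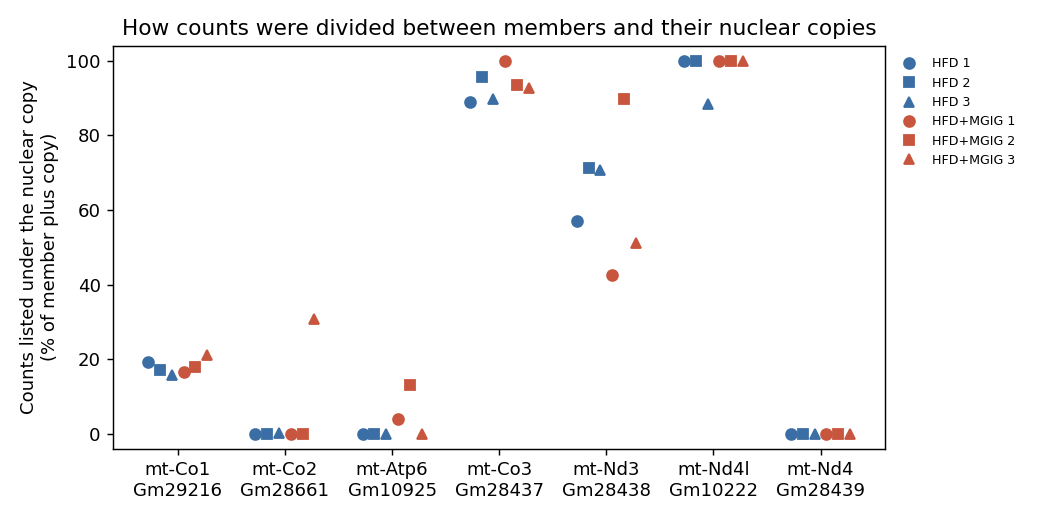
Counts listed under the nuclear copy as a percentage of the pair, for the 7 mitochondrial genes with a near-identical copy. Each point is 1 library (blue, HFD; red, HFD+MGIG; circle, square and triangle for libraries 1, 2 and 3); mt-Co3 and mt-Nd4l lie at 88.4% or above in all libraries, mt-Nd4 lies at 0, and mt-Nd3 spans 42.5% to 89.8%.

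The mRNA class took a smaller share of the library in HFD+MGIG, while the shares of the rRNA and tRNA classes overlapped between the groups. The 13 mRNA genes took 2.70%, 2.37% and 2.28% of all counts in HFD 1, 2 and 3. In HFD+MGIG 1, 2 and 3 they took 1.49%, 1.01% and 1.14%. Every HFD+MGIG library lay below every HFD library, and the means were 2.45% ± 0.223 and 1.21% ± 0.246 (SD, n = 3 each). The log2 difference was -1.03, with p = 0.1 in a two-sided exact permutation test of log2 shares, the smallest p that 3 against 3 libraries allow. With the nuclear copies added, the mRNA share was 3.53%, 3.12% and 2.92% in HFD against 1.99%, 1.43% and 1.58% in HFD+MGIG, again without overlap.

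Both mitochondrial rRNAs together took 0.833%, 0.432% and 0.446% of the counts in HFD against 0.401%, 0.294% and 0.759% in HFD+MGIG. HFD 1 and HFD+MGIG 3 were high, and the other 4 libraries lay between 0.294% and 0.446%, so the groups overlapped (0.570% ± 0.227 against 0.485% ± 0.244, exact permutation p = 0.5, two-sided, n = 3 each). The 22 tRNA genes took between 9.03e-05% and 0.000489% of the counts in any library (exact permutation p = 0.7, two-sided). All 37 genes took 3.53%, 2.80% and 2.72% in HFD against 1.89%, 1.30% and 1.90% in HFD+MGIG, and the Wilson 95% interval of any of these shares was at most 0.0149 percentage points to either side (counting error only). Of counts on protein-coding genes outside the silent families alone, the log2 difference was smaller, at -0.39 for all members and -0.58 for the mRNA class (exact permutation p = 0.1 for each).

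The ratio of rRNA to mRNA counts was 0.308, 0.182 and 0.196 in HFD against 0.270, 0.291 and 0.665 in HFD+MGIG. HFD+MGIG 3 had the highest ratio and the groups overlapped (0.229 ± 0.0692 against 0.409 ± 0.222, exact permutation p = 0.3, two-sided, n = 3 each). With the copies added, the ratio was 0.236, 0.139 and 0.153 in HFD against 0.201, 0.206 and 0.482 in HFD+MGIG (exact permutation p = 0.3). These p-values are the raw ones of a family of 7 shares and ratios; after Benjamini-Hochberg adjustment over the 7, that of the mRNA class was 0.35 and that of the rRNA to mRNA ratio 0.7. In bulk RNA, fewer cells of a type and less RNA per cell cannot be told apart.

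**Figure D2:**
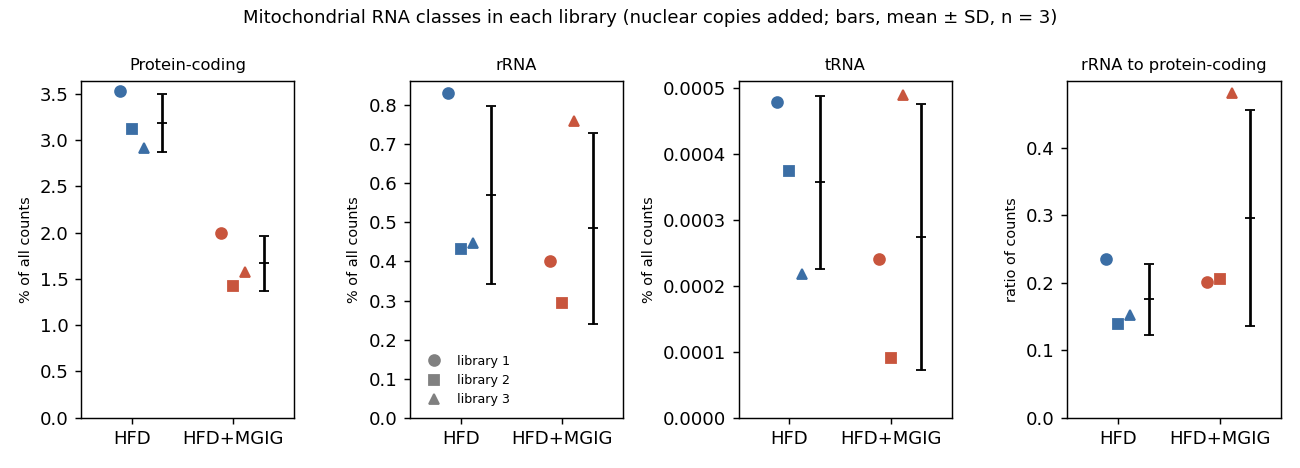
Share of all counts taken by mitochondrial protein-coding, rRNA and tRNA genes, and the ratio of rRNA to protein-coding counts, with nuclear copies added to the protein-coding genes. Each point is 1 library and the bars are mean ± SD (n = 3); only the protein-coding panel shows groups that do not overlap, at 2.92% to 3.53% in HFD against 1.43% to 1.99% in HFD+MGIG.

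The 2 ribosomal RNAs differed widely between libraries of the same group. mt-Rnr1, the 12S RNA of the small ribosomal subunit (chrM:70-1024), was at 986, 357 and 340 CPM in HFD and at 299, 248 and 1212 CPM in HFD+MGIG. mt-Rnr2, the 16S RNA of the large subunit (chrM:1094-2675), was at 7340, 3960 and 4121 CPM in HFD and at 3713, 2689 and 6377 CPM in HFD+MGIG. Both were highest in HFD+MGIG 3 and HFD 1, the deepest library of each group, and lowest in HFD+MGIG 2. mt-Rnr1 relative to mt-Rnr2 was 0.134, 0.0901 and 0.0824 in HFD against 0.0806, 0.0922 and 0.190 in HFD+MGIG, so that ratio too was highest in HFD+MGIG 3 and HFD 1. The groups overlapped in that ratio (exact permutation p = 0.7, two-sided).

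Neither rRNA passed the test across all genes. By edgeR's quasi-likelihood test with Benjamini-Hochberg adjustment over the whole table, the log2 fold change was -0.18 for mt-Rnr1 (SE 0.67, adjusted p = 0.820) and -0.54 for mt-Rnr2 (SE 0.58, adjusted p = 0.423). The sign for mt-Rnr1 turned when 1 library was left out: leaving out HFD 1 gave 0.37, leaving out HFD+MGIG 1 gave 0.083 and leaving out HFD+MGIG 2 gave 0.18. Leaving out HFD 2, HFD 3 or HFD+MGIG 3 gave -0.42, -0.47 and -1.29, and none of the 6 values was past the threshold.

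Among the mRNAs, 7 of the 12 that passed the filter on low counts were lower in HFD+MGIG at an adjusted p under 0.05 in edgeR's quasi-likelihood test, and none was higher; over all genes tested, 17.8% were called lower. The 7 were mt-Nd2, mt-Nd4, mt-Nd5 and mt-Nd6 of complex I, mt-Cytb of complex III, mt-Co2 of complex IV and mt-Atp8 of ATP synthase; with scaling factors from background-limited nuclear genes, described further on, 0 were called and mt-Nd6 was at 0.01. The log2 fold changes of all 12 lay between -2.16 and -0.89. With the nuclear copies added, 9 of 13 were called lower, again against 17.8% of all genes tested, and mt-Nd3 and mt-Nd4l joined the list. In 10 of 13 mRNAs every HFD+MGIG library was below every HFD library in deposited CPM, and in 12 of 13 with copies added, where mt-Atp8 was the exception; 23.7% of all genes tested had that order.

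The number called depended on single libraries. As deposited it was 0 without HFD 1, 2 without HFD 2, 2 without HFD 3, 8 without HFD+MGIG 1, 10 without HFD+MGIG 2 and 1 without HFD+MGIG 3. With copies added it was 1, 4, 4, 8, 13 and 2 in the same order. Calls over the whole table moved as well. As deposited, 2937 of 23204 genes tested were lower without HFD 1. The number was 2549 of 23259 without HFD 2 and 2134 of 23265 without HFD 3. Without HFD+MGIG 1, 2 and 3 it was 5123 of 26441, 5559 of 24993 and 2126 of 24696. Every log2 fold change of an mRNA stayed below 0 in all of these fits, the highest being -0.49 for mt-Nd3 as deposited.

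Complex I, which takes electrons from NADH, has 7 subunits encoded in mitochondrial DNA. mt-Nd4, a subunit of its proton-pumping arm (chrM:10167-11544), was at 1836, 1551 and 1536 CPM in HFD and at 881, 608 and 657 CPM in HFD+MGIG. There was no overlap between the groups, and its log2 fold change of -1.49 (SE 0.49, adjusted p = 0.0194) was the lowest of the genes whose counts were not shared with a filled nuclear copy. mt-Nd5 was at 1159, 928 and 913 CPM in HFD and at 624, 484 and 526 CPM in HFD+MGIG. mt-Nd2 was at 778, 606 and 583 CPM in HFD and at 405, 289 and 328 CPM in HFD+MGIG.

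mt-Nd1, the subunit near the ubiquinone site, was at 1706, 1594 and 1366 CPM in HFD and at 1053, 728 and 800 CPM in HFD+MGIG. Its groups did not overlap either, but its log2 fold change of -1.15 had an adjusted p of 0.0564 (edgeR). mt-Nd6 is the only mRNA gene on the minus strand (chrM:13552-14070), and it was at 112, 84.8 and 75.0 CPM in HFD and at 56.6, 52.4 and 55.7 CPM in HFD+MGIG. The log2 fold change of mt-Nd6 was -1.02 (adjusted p = 0.015, edgeR), beside -1.33 for mt-Cytb, the next mRNA gene, on the plus strand. A difference between the strands was not tested. The mt-Nd6 gene overlaps mt-Nd5 by 14 bases on the other strand, and no strand is stated for the counts.

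For both small complex I genes with copies, the deposited and the summed values differ. mt-Nd3 (chrM:9459-9806) was deposited at 67.1, 27.0 and 31.9 CPM in HFD and at 31.9, 7.76 and 38.3 CPM in HFD+MGIG, and the groups overlapped (log2 fold change -0.89, adjusted p = 0.138, edgeR). Summed with Gm28438 it was at 156, 94.3 and 109 CPM in HFD and at 55.4, 75.9 and 78.5 CPM in HFD+MGIG, and the groups separated (-1.09, adjusted p = 0.015). mt-Nd4l (chrM:9877-10173) was listed at 0 in 5 libraries and could not be tested as deposited. Summed with Gm10222 it was at 40.0, 32.8 and 30.2 CPM in HFD and at 16.9, 15.4 and 28.1 CPM in HFD+MGIG (-1.05, adjusted p = 0.0133, edgeR).

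Complex III passes electrons from ubiquinol to cytochrome c, and its single mitochondrially encoded subunit is cytochrome b. mt-Cytb (chrM:14145-15288) was at 3891, 2951 and 3388 CPM in HFD and at 1974, 1443 and 1572 CPM in HFD+MGIG. There was no overlap between the groups, and the log2 fold change was -1.33 (SE 0.51, adjusted p = 0.040, edgeR).

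Complex IV, cytochrome c oxidase, has its catalytic core in mt-Co1, mt-Co2 and mt-Co3. mt-Co1 (chrM:5328-6872), which binds the haem groups where oxygen is reduced, was the most abundant mRNA, with 9938, 9737 and 9124 CPM in HFD against 6076, 3516 and 4327 CPM in HFD+MGIG. Its groups were well separated, yet the test gave a log2 fold change of -1.34 with an adjusted p of 0.0584 (edgeR). mt-Co2, which receives electrons from cytochrome c, was at 1787, 1572 and 1271 CPM in HFD and at 924, 752 and 584 CPM in HFD+MGIG (-1.34, adjusted p = 0.031). With Gm28661 added its value in HFD+MGIG 3 rose to 843 CPM and the log2 fold change was -1.18 (adjusted p = 0.0484).

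Among the 12 mRNAs tested as deposited, mt-Co3 depended most on how the counts were divided. As deposited it was at 729, 248 and 521 CPM in HFD and at 0.0916, 207 and 222 CPM in HFD+MGIG, and its log2 fold change of -2.16 had an SE of 1.14 and an adjusted p of 0.115 (edgeR). Summed with Gm28437 it was at 6524, 5627 and 5124 CPM in HFD and at 3736, 3242 and 3080 CPM in HFD+MGIG. On that count the groups did not overlap and the log2 fold change was -1.09 (adjusted p = 0.0888), in the range of the other mRNAs.

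ATP synthase has mt-Atp6, part of its proton channel, and mt-Atp8, a short stalk subunit, both translated from 1 mRNA in which the reading frames overlap by 43 bases. mt-Atp6 (chrM:7927-8607) was at 4928, 4347 and 3907 CPM in HFD and at 2801, 1978 and 2259 CPM in HFD+MGIG (-1.20, adjusted p = 0.0636, edgeR). mt-Atp8 (chrM:7766-7969) was at 75.6, 45.4 and 50.3 CPM in HFD and at 27.7, 23.9 and 50.8 CPM in HFD+MGIG (-1.01, adjusted p = 0.0284). mt-Atp8 in HFD+MGIG 3 was above 2 of the HFD libraries, so its groups overlapped.

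Genes on 1 mRNA were not listed at the same level per length. Per kb of gene, mt-Atp6 with its copy was 19.5, 28.7 and 23.3 times mt-Atp8 in HFD against 31.6, 28.5 and 13.3 times in HFD+MGIG. For the other shared mRNA, whose reading frames overlap by 7 bases, mt-Nd4 was 9.89, 10.2 and 11.0 times mt-Nd4l per kb in HFD against 11.3, 8.53 and 5.03 times in HFD+MGIG, with copies added. HFD+MGIG 3 had the lowest ratio of the 6 libraries in both.

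**Figure D3:**
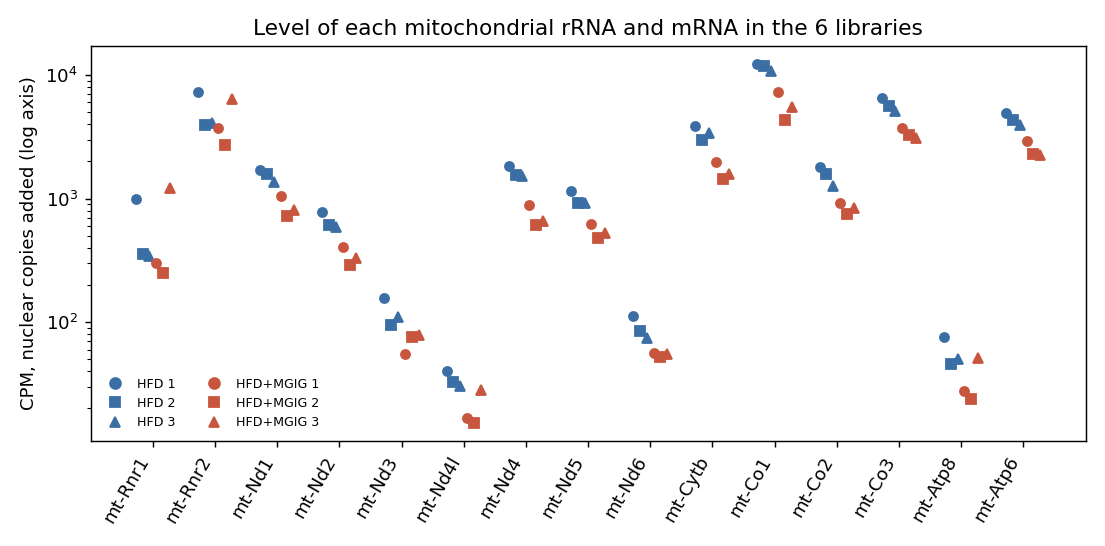
Level of the 2 rRNAs and 13 mRNAs in each library, in CPM on a log axis with nuclear copies added, grouped by complex. Each point is 1 library; the red HFD+MGIG points lie below all blue HFD points for 12 of 13 mRNAs, while both rRNAs overlap between the groups.

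By mean level per kb the mRNAs stood in the same order in both groups, except that mt-Co1 and mt-Co3 changed places. With copies added, mt-Co1 (7517 CPM per kb), mt-Co3 (7345) and mt-Atp6 (6452) led in HFD, followed by mt-Cytb (2981), mt-Co2 (2257), mt-Nd1 (1625) and mt-Nd4 (1191). In HFD+MGIG the mean levels were 3675 CPM per kb for mt-Co1, 4276 for mt-Co3 and 3649 for mt-Atp6. The ranges of those 3 genes over the libraries overlapped in both groups, and mt-Cytb was well below them, at 1454. Within each library, however, mt-Atp6 was below mt-Co3. mt-Co3 was above mt-Co1 in every HFD+MGIG library, but in HFD only in HFD 1. The lowest mRNAs per kb were mt-Nd4l (116 in HFD against 67.7 in HFD+MGIG) and mt-Nd6 (175 and 106). mt-Rnr2 lay by mean between mt-Atp6 and mt-Cytb, at 3249 CPM per kb in HFD and at 2693 in HFD+MGIG. Its HFD libraries overlapped those of mt-Cytb. In HFD+MGIG 3 it was at 4031 CPM per kb, above mt-Co3 (3928), mt-Co1 (3550) and mt-Atp6 (3318).

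mt-Co1, mt-Co3 and mt-Atp6, in that order, held the largest shares of the mRNA pool in all 6 libraries. As shares of the mitochondrial mRNA counts with copies added, mt-Co1 held 36.5% ± 1.47 in HFD against 33.7% ± 3.35 in HFD+MGIG, and mt-Cytb held 10.7% ± 1.11 and 9.99% ± 0.106 (SD, n = 3 each). Pearson's r of the log2 shares over the 13 genes was 0.994 to 0.9995 for the 15 pairs of libraries, a description across genes of widely different level. The largest difference of any gene between 2 libraries was 1.21 on the log2 scale, between HFD+MGIG 1 and HFD+MGIG 3, where the share of mt-Atp8 was 0.139% and 0.322%. In 3 genes the shares of the groups did not overlap. The share of mt-Nd4 was 4.98% to 5.26% in HFD against 4.17% to 4.42% in HFD+MGIG. The shares of mt-Co3 (17.6% to 18.5% against 18.7% to 22.7%) and mt-Atp6 (13.4% to 14.0% against 14.3% to 15.96%) were higher in HFD+MGIG. Of all tested genes set against the same mRNA total, 1.59% lay below and 68.1% above without overlap. Over the 13 genes each of these 3 had an exact permutation p of 0.1 (two-sided), the smallest possible, and 0.433 after Benjamini-Hochberg adjustment.

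**Figure D4:**
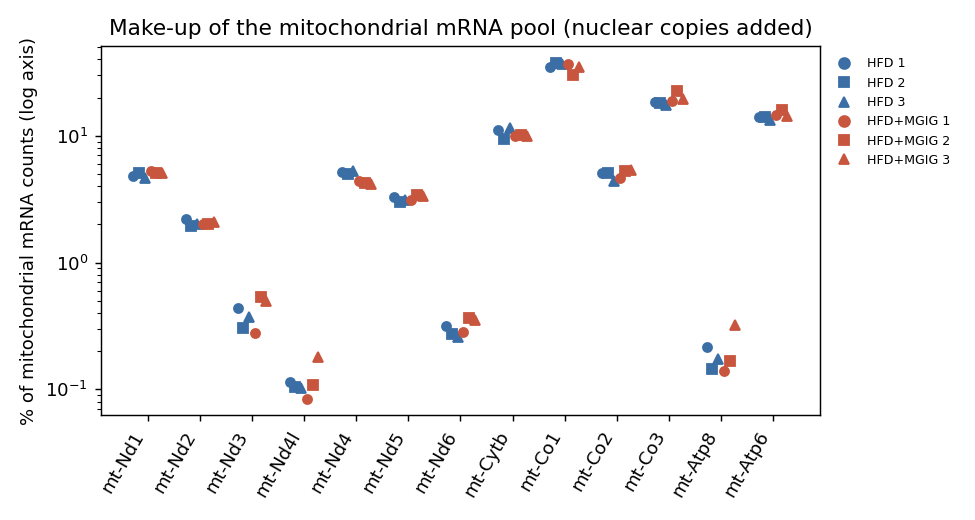
Share of each of the 13 mRNAs in the mitochondrial mRNA counts of a library, in percent on a log axis, nuclear copies added. Each point is 1 library; mt-Nd4 is lower in all HFD+MGIG libraries (4.17% to 4.42% against 4.98% to 5.26%), and 10 of the 13 genes overlap between the groups.

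Relative to the mitochondrial mRNA total in place of the whole library, no member was called. This fit asks whether any mitochondrial RNA moved apart from the mRNA pool, with the sum of the 13 mRNA genes as the library size in edgeR's quasi-likelihood test. The mRNAs lay between -0.60 and 0.35 on the log2 scale, or between -0.27 and 0.25 with copies added. Because the library size is the sum of these same 13 genes, the scale centres the mRNAs near 0. A shift common to all mRNAs cannot show in this fit, only a shift of single members against the others. mt-Rnr1 was at 1.18 (adjusted p = 0.153) and mt-Rnr2 at 0.79 (adjusted p = 0.156). None of the 15 members tested had an unadjusted p under 0.05, DESeq2 called 0, and 61.9% of all genes tested were called higher on this scale and 0.399% lower (59.4% and 0.508% with copies added). Without HFD+MGIG 2, mt-Rnr2 was called higher (0.97, adjusted p = 0.0452), beside 16161 of 24993 genes tested. Without HFD+MGIG 3, mt-Rnr1 was at 0.01.

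The fold changes against the whole library rested on the scale. A set of 2824 protein-coding genes had a background bound of at most 0.25 of their level, both as means over all 6 libraries. A gene could therefore enter the set through a high level in HFD. Of the set, 43.9% were called lower in the same fit, with a median log2 fold change of -0.91. How far the way of selection set these 2 values was not tested. When the TMM factors were taken from those genes, fold changes over all genes moved by a median of 1.09 on the log2 scale, and 0 of the 15 members were called by edgeR. On that scale the mRNAs lay between -0.49 and 0.01 with copies added, with a median of -0.14, and mt-Rnr1 and mt-Rnr2 were at 0.68 and 0.39. There, 2.00% of all genes were called lower and 49.4% higher, and mt-Nd4, at an adjusted p of 0.079, was the 1 member with an unadjusted p under 0.05. Factors taken from a set of genes centre that set near 0, here at a median log2 fold change of 0.0062, and the set was chosen in these same libraries. The mRNA class was thus lower as a share of all counts, while no mRNA was called lower relative to the background-limited nuclear genes.

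**Figure D5:**
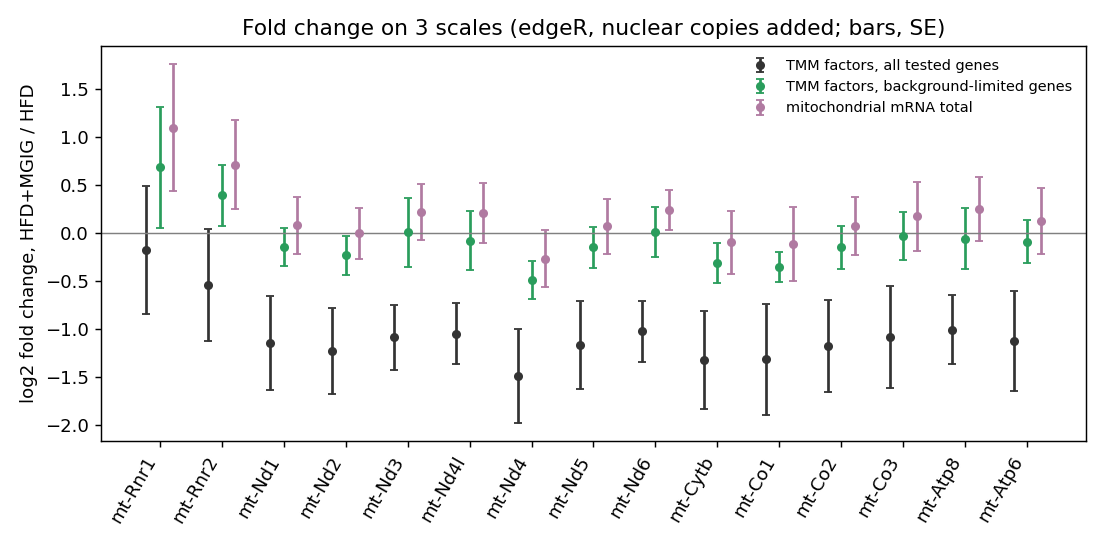
Fold change (log2, HFD+MGIG over HFD, ± SE) of the 2 rRNAs and 13 mRNAs from edgeR on 3 scales, with nuclear copies added. With TMM factors from all tested genes the mRNAs lie between -1.49 and -1.01, with factors from background-limited genes between -0.49 and 0.01, and relative to the mitochondrial mRNA total between -0.27 and 0.25; both rRNAs lie above the mRNAs on each scale.

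The tRNAs were close to the detection limit. Of 22 tRNA genes, 10 were listed at 0 in all 6 libraries and 12 had at least 1 count; the class summed to 80, 54 and 35 counts in HFD, against 10, 2 and 24 in HFD+MGIG. The SMART-Seq kit starts cDNA synthesis at poly(A) tails, which mature tRNAs do not carry. mt-Ts1, a tRNA for serine on the minus strand at the 3′ end of mt-Co1 (chrM:6870-6938), held 81.5% of all 205 tRNA counts. Its 69 bases are shown because it is the one tRNA with enough counts to test, and its gene overlaps the mt-Co1 gene on the other strand by 3 bases.
mt-Ts1: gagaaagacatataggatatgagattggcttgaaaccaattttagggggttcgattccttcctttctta

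mt-Ts1 had 63, 49 and 30 counts in HFD against 9, 1 and 15 in HFD+MGIG. In CPM that was 3.76, 3.39 and 1.86 in HFD against 2.17, 0.452 and 3.06 in HFD+MGIG, and the groups overlapped. The log2 fold change was -0.83 with an adjusted p of 0.301 (edgeR), and in HFD+MGIG 2 its level was under its background bound of 0.600 CPM. No other tRNA exceeded 7 counts in a library, the highest being mt-Tq in HFD 1, followed by mt-Te with 4 counts in HFD 1 and in HFD 2. mt-Tc, mt-Tk, mt-Tp and mt-Tf reached 2 counts in 1 library, and mt-Tv, mt-Tl1, mt-Ti, mt-Tn and mt-Tg never exceeded 1. The 10 listed at 0 were mt-Tm, mt-Tw, mt-Ta, mt-Ty, mt-Td, mt-Tr, mt-Th, mt-Ts2, mt-Tl2 and mt-Tt. In HFD+MGIG 1, 2 and 3, the tRNAs above their background bound numbered 1, 0 and 3 of 22, so a difference in tRNAs was not detectable at this depth. Reads from a tRNA and from an unspliced precursor or an antisense transcript that spans it cannot be told apart in these counts.

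Calls in 4 lists of nuclear genes for the upkeep and expression of mitochondrial DNA depended on the scale. With TMM factors from all tested genes, where 17.8% of all genes were called lower and 43.0% higher by edgeR, the lists held calls in both directions. With factors from background-limited genes, none of their members was called lower, beside 2.00% of all genes lower and 49.4% higher. The median log2 fold change over all genes was 1.52 on that scale, above the median of each of the lists. Of 19 tested genes for transcription, replication and packaging, 3 were called higher and 2 lower with TMM factors from all genes (median log2 fold change -0.21, against 0.38 over all genes), and 7 higher and 0 lower with background-limited factors (median 0.61). Mterf3, a regulator of mitochondrial transcription and ribosome assembly, was higher, at 40.7 ± 0.774 CPM in HFD against 116 ± 39.6 CPM in HFD+MGIG (SD, n = 3 each), with a log2 fold change of 1.15 and an adjusted p of 0.00719, and it was called higher with background-limited factors too (2.38, adjusted p = 0.00642). Its mean background bound in HFD+MGIG was 28.9 CPM. Tfb1m, which methylates the 12S rRNA, was also called higher, but its 14.1 CPM in HFD+MGIG lay under the bound of 21.3 CPM. Polg2, the accessory subunit of the mitochondrial DNA polymerase, lay under its bound as well. Mgme1, a nuclease of mitochondrial DNA replication, was called lower with TMM factors from all genes (-0.89, adjusted p = 0.0218) but not with background-limited factors (0.20, adjusted p = 0.715). Atad3a, a membrane ATPase near the nucleoids, was likewise called on the first scale (-0.99, adjusted p = 0.0277) and not on the second (-0.10, adjusted p = 0.766). Both lay under their bound in HFD+MGIG, Mgme1 at 14.0 CPM under 19.7 and Atad3a at 16.6 CPM under 22.2.

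Of 18 tested genes for RNA processing, stability and decay, 1 was called higher and 7 lower with TMM factors from all genes, beside 43.0% and 17.8% of all genes, with a median of -0.66. With background-limited factors 4 were higher and 0 lower, beside 49.4% and 2.00% of all genes. The list's median was then 0.26, against 1.52 over all genes. The 1 called higher, Fastkd1, was at 18.1 CPM in HFD+MGIG, under its bound of 34.5 CPM. Grsf1, an RNA-binding protein of the mitochondrial RNA granules, was at 54.7 ± 3.23 CPM in HFD and at 30.1 ± 5.43 CPM in HFD+MGIG. Its log2 fold change was -1.15 (adjusted p = 0.00644, edgeR), and -0.17 (adjusted p = 0.520) with background-limited factors. Elac2, which cuts the 3′ ends of the tRNAs out of the precursors, was called lower on the first scale (-1.01, adjusted p = 0.0307) and not on the second (-0.12, adjusted p = 0.788), and its 11.0 CPM in HFD+MGIG was under its bound of 20.5 CPM. In the list for rRNA maturation and translation factors, 4 of 19 were lower and 0 higher (median -0.28), a share lower of 21.1%, close to that of all genes. With background-limited factors 0 were lower and 3 higher (median 0.65). Tufm, the elongation factor that brings tRNAs to the mitochondrial ribosome, was at 29.1 ± 3.96 CPM in HFD against 16.8 ± 3.18 CPM in HFD+MGIG (-1.06, adjusted p = 0.00905, and -0.10, adjusted p = 0.788, with background-limited factors). In the list for tRNA modification and charging, 3 of 30 were higher and 5 lower (median -0.38), a share lower of 16.7%, again close to that of all genes. With background-limited factors 6 were higher and 0 lower (median 0.68). The 3 called higher with TMM factors from all genes, Mars2, Nars2 and Osgepl1, were under their mean bound in HFD+MGIG.

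The nuclear-encoded partners of the same complexes were lower or not called. Of 54 tested partners, 24 (44.4%) were called lower and 0 higher by edgeR, against 17.8% lower over all genes. The share was close to that of the 2824 background-limited genes, of which 43.9% were called lower in the same fit. The partners had a median log2 fold change of -0.83, beside -0.91 for the background-limited genes and -1.15 for the 13 mitochondrial mRNAs with copies added. By complex, 9 of 21 were lower in complex I (median -0.80), 3 of 9 in complex III (-0.82), 8 of 10 in complex IV (-0.89) and 4 of 14 in ATP synthase (-0.86). Cox7a2, a small subunit of complex IV, fell from 53.1 ± 8.12 to 31.4 ± 4.54 CPM (-1.04, adjusted p = 0.00872). Ndufv1, the NADH-binding subunit of complex I, fell from 69.1 ± 12.5 to 40.1 ± 13.4 CPM (-1.04, adjusted p = 0.0243), and Atp5d of ATP synthase from 68.4 ± 10.9 to 40.4 ± 14.4 CPM (-1.02, adjusted p = 0.0262). With factors from background-limited genes, 0 of the 54 were lower and 1 was higher, beside 2.00% and 49.4% of all genes. Their median was 0.14, next to -0.14 for the mitochondrial mRNAs with copies added and 1.52 over all genes. No test of the difference between mitochondrial and nuclear subunits was made.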

How the data were processed

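The authors deposited 1 table of estimated counts, many of them fractional, for 3 HFD and 3 HFD+MGIG libraries. Per the labels' protocols, RNA was taken up in TRIzol and 10 ng went into a SMART-Seq v4 library. Per the submitters' processing notes, fastp, HISAT2, StringTie and the mm10 build were used; the sources used here do not give the counting program or its treatment of reads that match several genes. The table was not filtered, 8 empty columns were skipped and 0 columns of values were left unused. Symbols, classes, positions and sequences were read from GENCODE M21 on mm10, where 51884 of the 57180 IDs had an entry.

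Counts were rounded and fitted over the whole table with edgeR 4.0.16 in R 4.3.3 (robust quasi-likelihood, TMM factors, filterByExpr by group, no covariate, Benjamini-Hochberg adjustment, threshold 0.05). A second fit took the sum of the 13 mitochondrial mRNA genes as library size with no further factor. CPM are per total count of the library, and errors shown as ± are SDs over 3 libraries. Class shares were compared by exact permutation of log2 values. Nuclear copies were found with BLAST 2.17.0 and then, as an alternative, added to their mitochondrial gene before rounding. The 2824 background-limited genes are protein-coding, lie outside the silent families and have at least 2 exon blocks. Their bound and level were compared as means over all 6 libraries. Other alternatives were RLE factors, library totals, DESeq2 1.42.0, limma 3.58.1 voom with quality weights, no filter, 5 CPM or more in 3 libraries, a replicate block, and leaving out 1 library at a time. Adding copies together with another alternative was chosen after seeing the data.

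The text names all members, and gives every library for the rRNAs, mRNAs and tRNAs with at least 10 mean counts, and from each nuclear list some of the up to 3 called genes with the smallest p in each direction; Prorp and Mtrfr were not matched. The members and lists were chosen with earlier results of these data known. The fits were tested on simulated counts.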

Additional observations from a re-analysis of the deposited data

How the results depend on the processing

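The count of mitochondrial genes called lower was 7 with TMM factors, 4 with library totals, 2 with a minimum of 5 CPM, and 0 with factors from background-limited genes, with or without copies added. It was 9 with RLE factors, 10 with DESeq2, 9 with voom, 7 with no filter and 9 with copies added. Leaving out 1 library gave 0 to 10, and 1 to 13 with copies added. With the replicate number as a block it was 4. Same-numbered libraries correlated at 0.08, 0.28 and 0.07 in their deviations from the group means, and differently numbered ones at -0.24 to 0.19. These values do not settle whether the numbers mark pairs, and the main fit did not take them as pairs. Relative to the mitochondrial mRNA total, 0 were called higher, 2 with no filter (mt-Rnr2 and mt-Tf, which had at most 2 counts), and 0 to 1 with 1 library left out. Most genes were called higher on that scale: 27494 of 44944 tested with no filter, and 16161 of 24993 without HFD+MGIG 2. The class shares of counts on protein-coding genes outside the silent families gave -0.39 for all members and -0.58 for mRNAs.

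mt-Rnr1 changed sign from -0.18 to 0.066 with library totals, 0.15 with the 5 CPM minimum, 0.81 with voom and 0.68 with background-limited factors, with or without copies; leaving out 1 library gave -1.29 to 0.37, and with copies added 0.082 without HFD+MGIG 1 and 0.18 without HFD+MGIG 2. Relative to the mRNA total, leaving out 1 library gave 0.012 to 1.75 for mt-Rnr1, and -0.072 to 1.66 with copies added. mt-Rnr2 went from -0.54 to 0.39 with background-limited factors, with or without copies, and to 0.019 with voom. On background-limited factors mt-Nd6 was at 0.010, with or without copies, and mt-Nd3 with copies at 0.0064. The cause was not tested. The tRNA share with the background bound subtracted gave no value, since a class sum reached 0.

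Depth is 1 limit for the tRNAs: 1 count was worth more CPM in every HFD+MGIG library than in any HFD library. The share of all tested genes called lower moved with the scaling as well, from 4109 genes with TMM factors to 3966 with RLE factors, 2529 with library totals and 460 with background-limited factors, beside 9902, 10115, 10381 and 11395 called higher. Of 23053 genes tested, DESeq2 called 4665 lower, voom 6873 and the fit with a replicate block 4307. With no filter 4898 of 44944 were lower, and with the 5 CPM minimum 1753 of 14775.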
